A study of Mus musculus with 16 samples.

Results

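The set described here holds 37 genes of glucose uptake, glycolysis, lactate handling and the response to low oxygen, taken by symbol from a table of 24421 gene symbols. All 37 were found, with Ero1a written as Ero1l, and 36 passed the filter on low counts, the exception being Eno1. RNA was sequenced from F4/80-positive macrophages sorted from mouse muscle, in 4 groups of 4 libraries: wild type (WT) and GLUD1 KO mice, here KO, which the design text calls Glud1-deficient, with muscle either normal or CTX-injected and taken at the height of damage. CTX is named only by its abbreviation. The sources used here do not give strain, age, dose, days after injection, the cells that lost Glud1 or whether mice were pooled. The libraries carry the numbers 2, 3, 5 and 6 in WT normal, 1, 2, 3 and 5 in KO normal and 1 to 4 in both CTX groups, and values are listed in that order below.

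Glycolysis splits glucose into pyruvate in the cytosol and yields ATP without oxygen, and lactate dehydrogenase turns pyruvate into lactate, which leaves the cell through monocarboxylate transporters. The transcription factor HIF-1, whose oxygen-regulated subunit is encoded by Hif1a, is marked for destruction by prolyl hydroxylases (Egln genes) when oxygen is present, and otherwise raises many glycolytic genes. In macrophages the same factor can also be raised by inflammatory signals, and much of its control acts on the protein, which RNA counts do not measure.

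Levels are given as CPM, read counts per fixed library size, scaled with TMM factors, which set the bulk of genes equal between libraries, and changes as log2 differences from edgeR's quasi-likelihood test with Benjamini-Hochberg adjustment over 13649 genes and a threshold of 0.05. Library totals ran from 17051892 to 23097420 counts. F4/80 itself (Adgre1) ranged over 509 to 698 CPM without injury and 617 to 1254 CPM with it, and the 10 pan-macrophage markers summed to 13042 to 19855 CPM in WT normal, 11281 to 17203 in KO normal, 29250 to 36348 in WT CTX and 22109 to 26377 in KO CTX libraries. With injury 7 of the 10 were called higher and 2 lower in WT (6 and 3 in KO), and Csf1r, the CSF1 receptor, went from 2562 to 3720 CPM to 1572 to 1815 CPM. Lyz2 and Cd14 held large parts of the marker sums. Lyz2 lay at 3840 to 11292 CPM without injury, 13512 to 15907 CPM in WT CTX and 7324 to 9380 CPM in KO CTX libraries. Cd14 went from 704 to 2987 CPM to 7551 to 11616 CPM. Between KO and WT in CTX muscle 0 of the 10 markers were called, with 5 estimates higher and 5 lower in KO. Glud1 was present in KO libraries (209.8 to 271.7 CPM normal, 327 to 352 CPM CTX) and in WT (219 to 293 and 348 to 391 CPM). Which exons were removed is not known from the sources used here, and the count therefore checks no label. By Xist, 3 normal libraries (WT 5 and 6, KO 5) were from females and the other 13 libraries from males. Whether each library is a separate mouse is not stated in the labels, and p-values reflect only the spread among libraries, which may be technical.

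Injury moved most of these genes upward. In WT, 27 of the 36 tested members rose and 5 fell, where 33.3% of all tested genes rose and 39.4% fell. In KO, 26 rose and 6 fell, against 33.3% and 40.2% of all genes. The median log2 change of the members was 1.14 in both genotypes, beside -0.15 (WT) and -0.16 (KO) over all tested genes. Rises of at least 2-fold were called in 20 members in WT and 21 in KO (13% and 12.7% of all genes), and falls of that size in 2 members in each, Pfkm and Adm (28.4% and 29.2% of all genes). The libraries of the groups did not overlap for 29 members in each genotype (65.5% of all genes in WT, 66.8% in KO).

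The size of these changes depends on the scaling. TMM factors were 1.13 to 1.34 in normal and 0.758 to 0.866 in CTX libraries, and with library totals alone the median of all genes moved by -0.62 in WT and -0.61 in KO. On that scale 20 members rose and 8 fell in WT (14.2% and 61.2% of all genes), 19 and 8 in KO (14.1% and 61.5%), and the members' median was 0.52 and 0.53. A share of all counts is a value on this same scale of library totals. The 20 glycolytic enzymes and regulators from Hk1 to Ldhb took 0.262% to 0.304% of counts in WT normal and 0.602% to 0.769% in WT CTX libraries, and 0.264% to 0.321% and 0.663% to 0.780% in KO.

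**Figure D1:**
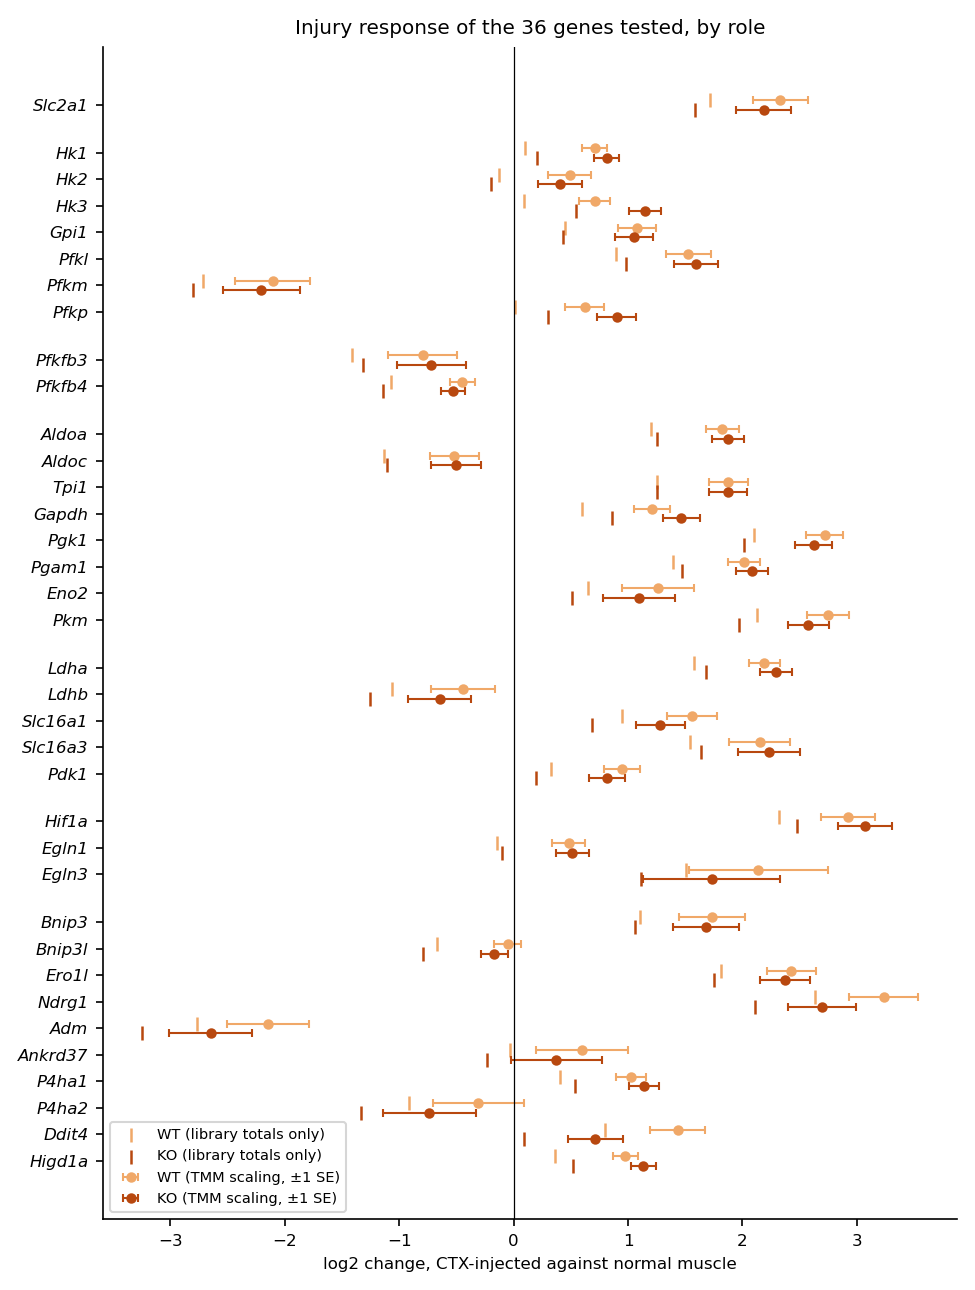
Log2 change between CTX-injected and normal muscle for the 36 tested genes, ordered by role from glucose uptake to other HIF targets, in WT (light) and KO (dark); circles with bars are edgeR estimates with TMM scaling ± 1 SE, and vertical ticks the same estimates with library totals only. Most circles lie right of 0, led by Ndrg1, Hif1a, Pkm and Pgk1, and the ticks lie about 0.6 to their left, past 0 for Hk2, Egln1 and Ankrd37.

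Promoters of 4 members are printed as examples: Slc2a1, Ldha and Bnip3, which rose, and Adm, which fell. They are the 250 bases before a RefSeq transcription start on GRCm38.p6, 5′ to 3′ on the gene's strand, at chr4:119108495-119108744 (plus strand), chr7:46845554-46845803 (plus strand), chr7:138909507-138909756 (minus strand) and chr7:110627407-110627656 (plus strand). Of the starts listed for a gene, the one with most matches was taken. Capitals mark every ACGTG or GCGTG on either strand, the core letters of the hypoxia response element, with overlapping matches joined.
Slc2a1: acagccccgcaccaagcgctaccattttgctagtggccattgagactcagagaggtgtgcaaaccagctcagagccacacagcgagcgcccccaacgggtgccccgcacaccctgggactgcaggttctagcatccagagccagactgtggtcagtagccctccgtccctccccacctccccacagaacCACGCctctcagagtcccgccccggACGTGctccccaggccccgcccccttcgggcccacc
Ldha: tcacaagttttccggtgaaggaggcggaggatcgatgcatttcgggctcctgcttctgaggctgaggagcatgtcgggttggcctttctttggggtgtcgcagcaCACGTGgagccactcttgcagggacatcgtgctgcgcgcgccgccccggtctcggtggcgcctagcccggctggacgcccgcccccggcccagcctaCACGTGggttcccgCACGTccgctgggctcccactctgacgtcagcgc
Bnip3: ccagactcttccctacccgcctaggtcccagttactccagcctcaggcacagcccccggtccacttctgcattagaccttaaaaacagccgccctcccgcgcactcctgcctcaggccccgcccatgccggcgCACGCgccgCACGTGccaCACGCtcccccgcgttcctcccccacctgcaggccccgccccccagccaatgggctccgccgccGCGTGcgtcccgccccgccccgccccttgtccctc
Adm: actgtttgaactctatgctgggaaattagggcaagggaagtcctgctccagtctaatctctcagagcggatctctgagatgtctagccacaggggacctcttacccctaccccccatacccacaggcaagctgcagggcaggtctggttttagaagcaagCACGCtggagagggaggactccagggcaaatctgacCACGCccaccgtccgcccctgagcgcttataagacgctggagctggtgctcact
The marked stretches number 2 in Slc2a1, 3 in Ldha, 4 in Bnip3 and 2 in Adm. In Ldha and Bnip3 some of these stretches read CACGTG, the E-box, in which ACGTG on one strand overlaps ACGTG on the other. Among the 35 members with an entry in the table, 32 held a match at 1 or more starts (91.4%), beside 59.7% of 10384 tested symbols and 41.5% of all 27025 genes listed. CACGTG was in 6 of the 35 (17.1%), 9.71% of tested symbols and 6.86% of all genes. Matches were found for 22 of 25 members that rose in both genotypes (88%) and for all 5 that fell in both. Ndrg1 and Bnip3l had no entry.

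RNA of Slc2a1, the only member listed under glucose uptake, rose, while uptake itself was not measured. Slc2a1 encodes GLUT1, the main glucose transporter of activated macrophages, and lies at chr4:119108711-119137983 (mm10, as all gene positions here). Its level was 67.2, 103, 64.2 and 76.04 CPM in WT normal and 303, 333, 569 and 357 CPM in WT CTX libraries. In KO it was 64.7, 54.9, 115 and 79.3 CPM in KO normal and 388, 384, 349 and 306 CPM in KO CTX libraries. All 8 CTX libraries lay above all 8 normal ones, with WT CTX library 3 far above the rest. The log2 change was 2.33 (SE 0.24) in WT and 2.19 (SE 0.24) in KO (edgeR adjusted p = 3.72e-07 and 6.99e-07). 

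In upper glycolysis, 6 of 7 genes rose in WT and 5 in KO, and Pfkm fell in both. Gpi1, glucose-6-phosphate isomerase, lay at 272, 201, 195 and 172 CPM in WT normal and 368, 419, 553 and 432 CPM in WT CTX libraries. In KO, Gpi1 was at 202, 279, 212 and 181 CPM in KO normal and 482, 509, 411 and 411 CPM in KO CTX libraries. CTX libraries were higher throughout, and the log2 change was 1.08 (SE 0.17) in WT and 1.05 (SE 0.17) in KO. Pfkl, the liver-type subunit of phosphofructokinase, lay at 61.9, 52.4, 54.2 and 54.9 CPM in WT normal and 117, 133, 255 and 139 CPM in WT CTX libraries. The KO values of Pfkl were 49.9, 58.6, 61.5 and 55.1 CPM in KO normal and 183, 199, 154 and 143 CPM in KO CTX libraries. Groups were separate in both genotypes, WT CTX library 3 held by far the highest Pfkl value, and the log2 change was 1.53 (SE 0.20) in WT and 1.59 (SE 0.20) in KO. For Gpi1 and Pfkl the edgeR adjusted p was at most 3.59e-05.

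The muscle-type subunit Pfkm was scarce. It lay at 6.13, 7.27, 10.9 and 9.33 CPM in WT normal and 1.81, 1.73, 2.46 and 1.81 CPM in WT CTX libraries. KO libraries held Pfkm at 4.98, 8.99, 7.68 and 7.41 CPM in KO normal and 0.633, 1.698, 1.12 and 2.81 CPM in KO CTX libraries. No CTX library reached a normal one, and Pfkm changed by -2.11 (SE 0.33) in WT and -2.20 (SE 0.34) in KO on the log2 scale (edgeR adjusted p = 3.21e-05 and 2.28e-05). The sum of the 14 muscle fibre markers also fell with injury. They summed to 21.9 to 55.3 CPM in WT normal and 6.43 to 8.33 CPM in WT CTX libraries, and to 19.2 to 60.8 and 5.71 to 8.15 CPM in KO. The highest sums were in WT normal 5 and 6 and KO normal 5. Pfkm was likewise highest in WT normal 5 and 6. In KO normal it was highest in library 2 (8.99 CPM), where the fibre sum was lowest (19.2 CPM). Acta1, skeletal actin, ranged over 2.65 to 15.3 CPM without injury and 1.04 to 2.77 CPM with it. The part of muscle fibre RNA in the fall of Pfkm was not tested. Pfkm also overlaps Senp1 on the other strand, which this kit, keeping no strand, cannot separate. The same limit holds for other members that overlap genes on the other strand, among them Slc2a1, Aldoa, Tpi1, Gapdh and Hif1a.

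Changes of the hexokinases, which trap glucose as glucose-6-phosphate, and of the platelet-type Pfkp were smaller. Hk1 changed by 0.71 (SE 0.11) in WT and 0.81 (SE 0.11) in KO, Hk3 by 0.71 (SE 0.14) in WT and 1.15 (SE 0.14) in KO and Pfkp by 0.62 (SE 0.17) in WT and 0.90 (SE 0.17) in KO, with edgeR adjusted p of at most 0.00379. With library totals only, the calls of Hk1 and Pfkp were lost in both genotypes and that of Hk3 in WT. Hk2, the inducible hexokinase, rose in WT from 58.6 ± 11.5 to 82.3 ± 27.6 CPM (SD, n = 4 each; log2 0.49, edgeR adjusted p = 0.0295). In KO its change of 0.40 did not pass (edgeR adjusted p = 0.0665), although the KO groups did not overlap, and with library totals the sign turned in both (-0.13 in WT, -0.20 in KO). Hk2 was called higher in KO by limma voom (adjusted p = 0.0097), without a filter, with only the groups compared and with the 3 libraries named below left out (edgeR adjusted p = 0.0462, 0.0174 and 0.0153). With a term for the library number (replicate block) it was called in WT (0.76, edgeR adjusted p = 0.000644) and KO (0.55, edgeR adjusted p = 0.00232). In the main fit the WT call rested on library 3 of the CTX group, at 123 CPM beside 63.7 to 76.8 CPM in the others. Without that library the change was 0.24 (edgeR adjusted p = 0.172). It also fell short of the threshold without WT normal library 2 (0.37, edgeR adjusted p = 0.0976) or 5 (0.49, edgeR adjusted p = 0.0541).

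Pfkfb3 and Pfkfb4, which encode forms of the enzyme that sets fructose 2,6-bisphosphate, the activator of phosphofructokinase, both fell. Of the other genes of that enzyme, Pfkfb2 fell in WT (-0.63, edgeR adjusted p = 0.00322) but was not called in KO (-0.34, edgeR adjusted p = 0.073), and Pfkfb1 was not called in WT or KO (-0.48 and -0.20, edgeR adjusted p = 0.197 and 0.594). Pfkfb3 lay at 126, 237, 184 and 201 CPM in WT normal and 75.7, 67.7, 192 and 96.1 CPM in WT CTX libraries. In KO it lay at 123, 94.9, 209 and 169 CPM in KO normal and 91.1, 108, 87.8 and 75.1 CPM in KO CTX libraries. WT groups overlapped through CTX library 3, KO groups also overlapped, and the log2 change was -0.79 (SE 0.30) in WT and -0.72 (SE 0.30) in KO (edgeR adjusted p = 0.0269 and 0.0422). Without WT CTX library 3 the WT change was -1.23 (edgeR adjusted p = 0.000576). The WT call was lost without WT normal library 3 or 6 or WT CTX library 1, 2 or 4 (-0.76 to -0.62, edgeR adjusted p = 0.0536 to 0.0871), and the KO call without KO normal library 3 or 5 or KO CTX library 1, 3 or 4 (-0.72 to -0.49, edgeR adjusted p = 0.0734 to 0.16).

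Pfkfb4 gave a smaller but more even fall. It lay at 69.2, 58.5, 54.7 and 67.6 CPM in WT normal and 46.8, 54.4, 39.7 and 42.5 CPM in WT CTX libraries. KO values of Pfkfb4 were 64.8, 66.97, 60.6 and 72.5 CPM in KO normal and 48.6, 47.2, 40.998 and 46.7 CPM in KO CTX libraries. WT normal library 5 and WT CTX library 2 almost touched, the KO groups stood clear of each other, and the log2 change was -0.45 (SE 0.11) in WT and -0.53 (SE 0.11) in KO (edgeR adjusted p = 0.00156 and 0.000373). 

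Of 8 genes of lower glycolysis tested, 7 rose by at least 2-fold in both genotypes and Aldoc fell in both. Aldoa, the main aldolase, lay at 341, 336, 320.02 and 265 CPM in WT normal and 966, 1067, 1373 and 1064 CPM in WT CTX libraries. In KO, Aldoa was at 301, 355, 347 and 306 CPM in KO normal and 1263, 1437, 1060.1 and 1032 CPM in KO CTX libraries. The lowest CTX value was far above the highest normal one, and the log2 change was 1.82 (SE 0.14) in WT and 1.87 (SE 0.14) in KO. Tpi1, triosephosphate isomerase, lay at 109, 107, 109.8 and 90.05 CPM in WT normal and 311, 329, 534 and 354 CPM in WT CTX libraries. In KO, Tpi1 was at 102, 115, 116 and 101 CPM in KO normal and 433, 483, 348 and 325 CPM in KO CTX libraries. WT CTX library 3 and KO CTX library 2 were highest, no normal library came near, and the change was 1.88 (SE 0.17) in WT and 1.87 (SE 0.17) in KO.

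Pgk1, phosphoglycerate kinase, lay at 51.3, 57.9, 46.4 and 38.3 CPM in WT normal and 287, 315, 383 and 294 CPM in WT CTX libraries. In KO, Pgk1 was at 46.9, 48.6, 60.8 and 39.6 CPM in KO normal and 319.8, 351, 284 and 255 CPM in KO CTX libraries. Every CTX library was far above every normal one, with a log2 change of 2.72 (SE 0.16) in WT and 2.62 (SE 0.16) in KO. Pgam1, phosphoglycerate mutase, lay at 32.9, 34.2, 27.7 and 25.1 CPM in WT normal and 105, 112, 144 and 123 CPM in WT CTX libraries. In KO, Pgam1 was at 30.04, 34.8, 38.2 and 26.8 CPM in KO normal and 140.4, 157, 129.9 and 124 CPM in KO CTX libraries. The groups were again separate and Pgam1 changed by 2.02 (SE 0.14) in WT and 2.08 (SE 0.14) in KO. Pkm, the pyruvate kinase of most tissues including macrophages, had the highest mean level per length in every group, in the normal groups within its spread of Ldha. It lay at 555, 664, 449 and 424 CPM in WT normal and 3328, 3665, 3869.6 and 3187 CPM in WT CTX libraries. KO libraries held 489.5, 574, 732 and 427 CPM in KO normal and 3491, 3615, 3177 and 2992 CPM in KO CTX libraries. The ranges lay far apart, and Pkm changed by 2.75 (SE 0.18) in WT and 2.58 (SE 0.18) in KO. These gene-level counts do not separate its M1 and M2 splice forms. For Aldoa, Tpi1, Pgk1, Pgam1 and Pkm the edgeR adjusted p was at most 8.64e-08.

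Eno2, the neuron-type enolase, was scarce, at 4.06, 6.41, 4.88 and 9.07 CPM in WT normal and 14.9, 13.3, 14.7 and 15.6 CPM in WT CTX libraries. In KO, Eno2 was at 4.44, 3.37, 9.004 and 11.6 CPM in KO normal and 17.9, 13.2, 15.3 and 14.03 CPM in KO CTX libraries. Normal libraries were scattered, with the highest in WT 6 and KO 5, but all stayed below the CTX ones. Its change was 1.26 (SE 0.32) in WT and 1.10 (SE 0.31) in KO (edgeR adjusted p = 0.00204 and 0.00511), and with library totals it did not pass (0.65 in WT and 0.51 in KO, edgeR adjusted p = 0.0599 and 0.132). Aldoc, the brain-type aldolase, lay at 4.73, 4.56, 4.605 and 3.04 CPM in WT normal and 3.002, 2.06, 4.05 and 2.75 CPM in WT CTX libraries. In KO, Aldoc was at 3.35, 3.97, 4.395 and 3.77 CPM in KO normal and 2.76, 3.34, 2.35 and 2.49 CPM in KO CTX libraries. WT groups overlapped while KO groups did not, and Aldoc changed by -0.52 (SE 0.22) in WT and -0.50 (SE 0.22) in KO (edgeR adjusted p = 0.042 and 0.0482). Leaving out any of 6 of the 8 WT libraries (all but WT normal 6 and WT CTX 3) or 7 of the 8 KO libraries (all but KO CTX 2) lost the call, at -0.52 to -0.37 and edgeR adjusted p = 0.0703 to 0.14 in WT, and -0.56 to -0.43 and 0.0508 to 0.125 in KO.

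Gapdh and Eno1, normally among the most abundant glycolytic transcripts, were almost uncounted. Gapdh lay at 7.62, 11.2, 6.59 and 8.14 CPM in WT normal and 16.03, 18.5, 21.9 and 21.1 CPM in WT CTX libraries. In KO, Gapdh was at 6.65, 6.55, 8.28 and 7.22 CPM in KO normal and 22.3, 20.9, 19.1 and 16.99 CPM in KO CTX libraries. CTX libraries were higher without overlap (log2 1.21 (SE 0.16) in WT and 1.47 (SE 0.16) in KO, edgeR adjusted p at most 5.55e-06). Eno1 had 35 counts over all 16 libraries, 0 to 10 each, and was not tested. Of all 50-base stretches in the transcripts of Gapdh, 58.4% also occur in other annotated genes, most in Gm7336 (58.2%), and of Eno1 49.5%, most in Eno1b (48.4%), which itself held 281 counts. Shared stretches were also frequent in Pgk1 (68%), Bnip3 (59.1%), Pgam1 (41.5%), Gpi1 (24.4%), Higd1a (24.4%), Bnip3l (24.4%), Pkm (23.7%) and Ldhb (21%), so the levels of these genes are uncertain. The sources used here do not say how reads that match several places were treated, and the part of such reads in the low counts was not tested.

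**Figure D2:**
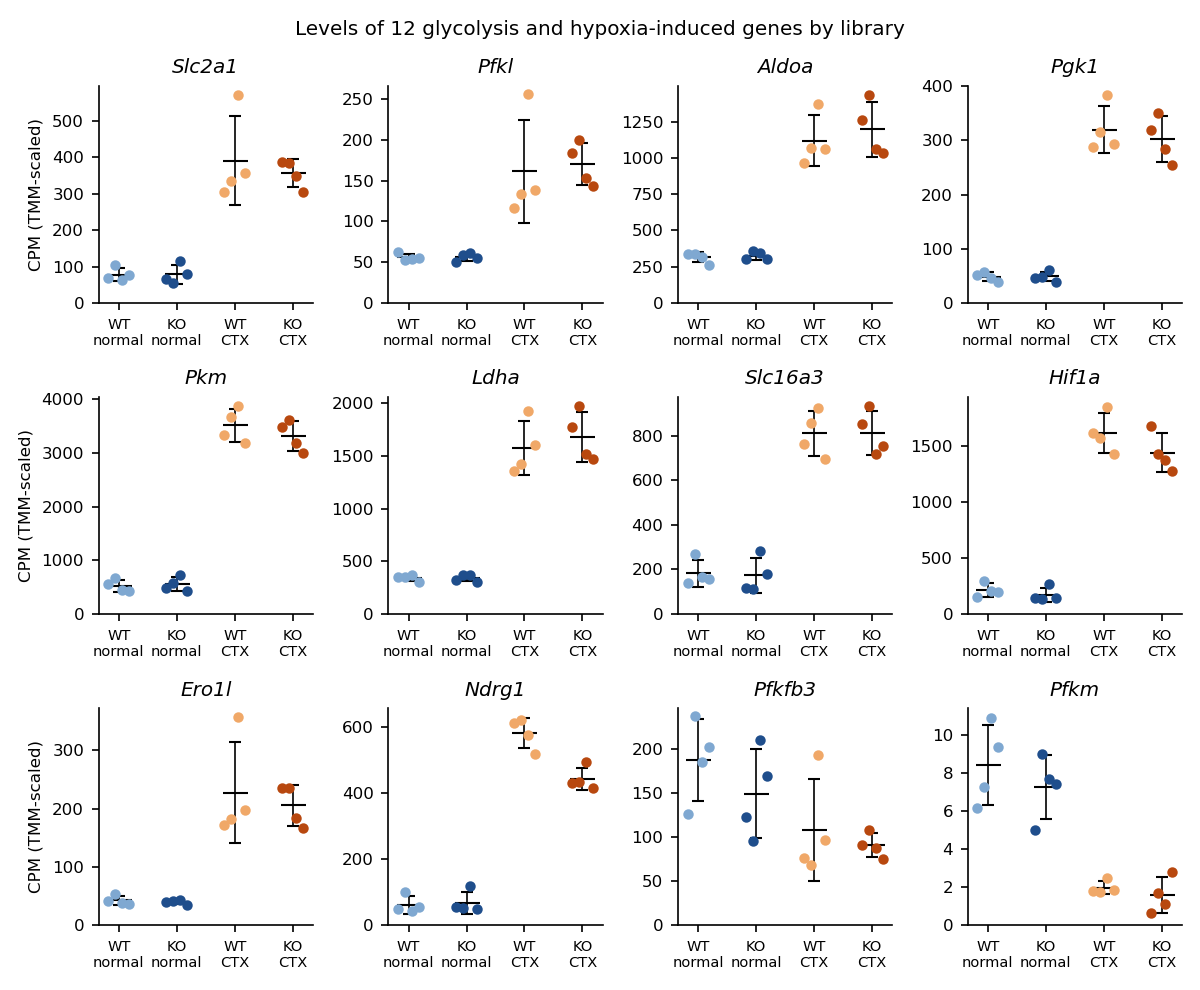
CPM (TMM-scaled) of 12 members in each library of the 4 groups, with the mean ± SD (n = 4) in black; each vertical axis starts at 0. In 10 panels, from Slc2a1 to Ndrg1, all 8 CTX libraries lie above all normal ones, in Pfkm all lie below, and in Pfkfb3 the groups overlap, with WT CTX library 3 at 192 CPM.

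Genes of lactate and pyruvate handling rose apart from Ldhb. Ldha, the lactate dehydrogenase subunit that favours lactate, lay at 352, 349, 372 and 308 CPM in WT normal and 1359.6, 1421, 1931 and 1603 CPM in WT CTX libraries. In KO, Ldha was at 322, 370.1, 374 and 308 CPM in KO normal and 1772, 1977, 1518 and 1469 CPM in KO CTX libraries. The lowest CTX value, 1359.6 CPM, was far above the highest normal one, and the log2 change was 2.19 (SE 0.14) in WT and 2.29 (SE 0.14) in KO. Slc16a3 encodes MCT4, a lactate exporter, and lay at 137, 272, 165 and 157 CPM in WT normal and 765, 857, 926 and 697 CPM in WT CTX libraries. KO libraries held Slc16a3 at 118, 114, 283 and 179.8 CPM in KO normal and 855, 932, 716 and 753 CPM in KO CTX libraries. Normal library 3 was the highest normal library in each genotype yet stayed far below the CTX libraries, and the change was 2.15 (SE 0.27) in WT and 2.23 (SE 0.27) in KO. Slc16a1, which encodes the transporter MCT1, lay at 29.03, 49.3, 48.2 and 31.6 CPM in WT normal and 98.5, 107, 167 and 92.8 CPM in WT CTX libraries. In KO, Slc16a1 was at 31.8, 33.7, 50.95 and 29.9 CPM in KO normal and 87.3, 93.9, 90.9 and 84.3 CPM in KO CTX libraries. Groups were separate, and the change was 1.56 (SE 0.22) in WT and 1.28 (SE 0.22) in KO. For these 3 genes the edgeR adjusted p was at most 6.22e-05.

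Ldhb, the subunit that favours pyruvate, lay at 9.14, 9.85, 5.31 and 6.33 CPM in WT normal and 4.82, 8.42, 4.85 and 4.398 CPM in WT CTX libraries. In KO, Ldhb was at 7.91, 10.3, 9.86 and 6.65 CPM in KO normal and 3.34, 5.32, 5.43 and 8.05 CPM in KO CTX libraries. Both pairs of groups overlapped. It fell in KO, with a log2 change of -0.65 (edgeR adjusted p = 0.0453), and had -0.44 in WT (edgeR adjusted p = 0.16), where library 2 was the highest of the CTX group. Without that library WT gave -0.70 (edgeR adjusted p = 0.0356), and the KO call was lost without KO normal library 1, 2 or 3 or KO CTX library 1, 2 or 3 (-0.69 to -0.47, edgeR adjusted p = 0.0578 to 0.145). The interaction of Ldhb was -0.20 (edgeR adjusted p = 1). Pdk1, the kinase that shuts pyruvate dehydrogenase, rose by 0.95 and 0.82 (edgeR adjusted p = 5.56e-05 and 0.000209) and did not pass with library totals (0.33 and 0.20).

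Among the HIF genes, Hif1a had the largest rise in KO and the second in WT of all members. It lay at 150.2, 299, 205 and 196 CPM in WT normal and 1610.3, 1574, 1849 and 1425 CPM in WT CTX libraries. In KO, Hif1a was at 147, 132, 263 and 141 CPM in KO normal and 1677, 1429, 1376 and 1276 CPM in KO CTX libraries. Normal library 3 of each genotype was highest of its group, and every CTX library was far above it. Hif1a changed by 2.93 (SE 0.24) in WT and 3.08 (SE 0.24) in KO (edgeR adjusted p = 2.85e-08 and 1.91e-08). Of the prolyl hydroxylases, Egln1 (PHD2) rose from 47.3 ± 5.49 to 66.2 ± 18.9 CPM in WT and from 45.8 ± 2.5004 to 65.5 ± 4.497 CPM in KO (SD, n = 4 each; log2 0.48 and 0.52, edgeR adjusted p = 0.00738 and 0.00473), but had -0.15 and -0.10 with library totals. Without WT CTX library 3 the WT change of Egln1 was 0.27 (edgeR adjusted p = 0.0243).

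Egln3 (PHD3), itself a HIF target, lay at 2.19, 2.28, 1.37 and 2.32 CPM in WT normal and 3.002, 2.73, 23.3 and 7.201 CPM in WT CTX libraries. In KO, Egln3 was at 1.63, 2.05, 3.2005 and 2.45 CPM in KO normal and 11.9, 12.0003, 4.14 and 3.07 CPM in KO CTX libraries. CTX values were split, high in WT library 3 and KO libraries 1 and 2, and KO groups overlapped. The log2 change was 2.14 (SE 0.61) in WT and 1.73 (SE 0.60) in KO (edgeR adjusted p = 0.00494 and 0.0162). Without WT CTX library 3 it was 1.08 (edgeR adjusted p = 0.0508), and without KO CTX library 1 or 2 it was 1.46 or 1.44 (edgeR adjusted p = 0.0523 and 0.0538).

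Other HIF targets were mixed: 6 of 10 rose in each genotype, Adm fell, and Bnip3l, Ankrd37 and P4ha2 did not pass. Ndrg1, a stress-response gene, had the largest rise in WT. It lay at 49.3, 101, 40.9 and 54.9 CPM in WT normal and 611, 619, 574 and 517 CPM in WT CTX libraries. In KO, Ndrg1 was at 54.3, 51.8, 118 and 48.4 CPM in KO normal and 429, 432, 492 and 414 CPM in KO CTX libraries. Normal library 3 of each genotype was the highest of its group, and CTX libraries were far higher, all WT ones above all KO ones. Ndrg1 changed by 3.24 (SE 0.30) in WT and 2.70 (SE 0.29) in KO. Ero1l, the oxidase that recharges disulphide formation in the endoplasmic reticulum, lay at 41.03, 53.4, 38.2 and 36.03 CPM in WT normal and 172, 182, 357 and 198 CPM in WT CTX libraries. In KO, Ero1l was at 39.2, 42.1, 43.5 and 33.9 CPM in KO normal and 236, 236, 184 and 167 CPM in KO CTX libraries. Groups were separate, WT CTX library 3 stood apart, and Ero1l changed by 2.43 (SE 0.22) in WT and 2.37 (SE 0.22) in KO. For both genes the edgeR adjusted p was at most 6.92e-07.

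Bnip3, a mitophagy receptor, lay at 18.1, 15.6, 17.1 and 12.5 CPM in WT normal and 32.2, 36.6, 95.7 and 46.2 CPM in WT CTX libraries. In KO, Bnip3 was at 17.95, 17.4, 14.8 and 12.97 CPM in KO normal and 61.6, 63.8, 40.6 and 36.8 CPM in KO CTX libraries. Its groups were separate, with WT CTX library 3 highest, and the change was 1.73 (SE 0.29) in WT and 1.68 (SE 0.29) in KO. P4ha1, a collagen prolyl hydroxylase subunit, lay at 83.6, 105, 91.3 and 80.8 CPM in WT normal and 157, 167, 229 and 179 CPM in WT CTX libraries. In KO, P4ha1 was at 77.4, 72.2, 98.4 and 90.1 CPM in KO normal and 195, 203, 179 and 169 CPM in KO CTX libraries. The groups did not overlap, and the change was 1.02 (SE 0.13) in WT and 1.14 (SE 0.13) in KO. For Bnip3 and P4ha1 the edgeR adjusted p was at most 7.45e-05. Adm, which encodes the vasodilator adrenomedullin, lay at 4.38, 4.82, 6.05 and 9.28 CPM in WT normal and 1.303, 1.06, 1.93 and 1.26 CPM in WT CTX libraries. In KO, Adm was at 4.896, 5.32, 9.52 and 8.11 CPM in KO normal and 1.21, 1.87, 0.839 and 0.519 CPM in KO CTX libraries. All 8 CTX libraries were below all normal ones, and Adm changed by -2.15 (SE 0.36) in WT and -2.65 (SE 0.36) in KO (edgeR adjusted p = 5.53e-05 and 7.98e-06).

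Ddit4, an inhibitor of mTORC1, rose by 1.43 in WT and 0.71 in KO (edgeR adjusted p = 7.09e-05 and 0.0144), and in KO the call was lost without CTX library 1 (0.58, edgeR adjusted p = 0.0545) and with library totals (0.10). Higd1a, a mitochondrial protein, rose by 0.98 and 1.13 (edgeR adjusted p = 1.01e-06 and 2.11e-07). The mitophagy receptor Bnip3l changed by -0.05 and -0.17, Ankrd37 by 0.60 and 0.38 and P4ha2 by -0.31 and -0.74, with edgeR adjusted p of 0.115 to 0.705. Single libraries moved the scarce pair: in WT, Ankrd37 was at 0.05 without WT CTX library 3, and P4ha2 ranged from -0.76 (without WT CTX 3) to -0.07 (without WT CTX 1). In KO, Ankrd37 ranged from 0.18 (without KO normal 1) to 0.70 (without KO normal 5). Bnip3l was called lower in KO by limma voom (-0.24, adjusted p = 0.0411) and with the 5 CPM filter (-0.34, edgeR adjusted p = 0.0136). With library totals, Bnip3l (-0.67 and -0.79) and P4ha2 (-0.92 and -1.34) were called lower in both genotypes.

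Per kilobase of exon, Pkm led in WT CTX libraries at 1351 ± 119.8 CPM per kb (SD, n = 4). Ldha followed at 833 ± 135 and Aldoa at 613 ± 96.7 CPM per kb, whose ranges overlapped. Hif1a came next at 296 ± 32.2 CPM per kb, with Tpi1 at 216 ± 58.3, Ndrg1 at 201 ± 16.1, Slc16a3 at 182 ± 22.6 and Pgk1 at 175 ± 23.9. From Tpi1 to Pgk1 neighbours differed by less than the larger SD of each pair. In WT normal libraries Pkm (201 ± 42.2), Ldha (182 ± 14.3) and Aldoa (173 ± 19.01 CPM per kb) led within their spread of each other, ahead of Gpi1 (72.8 ± 15.01). 

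Ratios of related genes within a library do not depend on scaling between libraries. Ldha exceeded Ldhb by 5.53 ± 0.44 log2 units in WT normal and 8.16 ± 0.55 in WT CTX libraries (SD, n = 4 each), a difference of 2.63, and by 2.98 more after injury in KO. The ratio of Aldoa to Aldoc rose by 2.34 in WT and 2.36 in KO, that of Bnip3 to Bnip3l by 1.65 and 1.82, that of P4ha1 to P4ha2 by 1.44 and 1.95, and that of Slc16a3 to Slc16a1 by 0.64 and 1.01. The ratio of Pfkm to Pfkl changed by -3.52 in WT and -3.95 in KO. In each of these 6 pairs the groups did not overlap in either genotype, with an exact two-sided permutation p = 0.0286, the smallest that 4 against 4 libraries allow. Adjusted over 48 tests (12 pairs in 4 comparisons) these became 0.098 and did not pass. No ratio separated KO from WT: the smallest exact permutation p was 0.0571, for Slc16a3 to Slc16a1 in CTX muscle (0.35 higher in KO, adjusted p = 0.171).

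**Figure D3:**
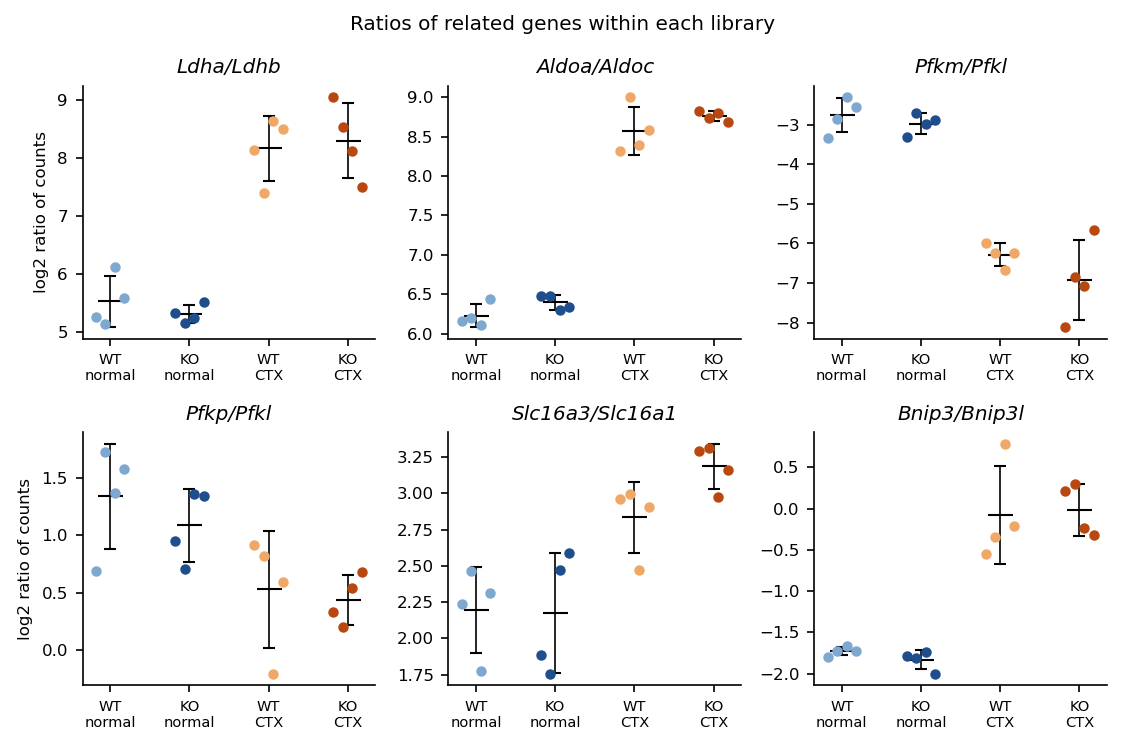
Log2 ratio of counts of related genes within each library, by group, with the mean ± SD (n = 4) in black. The Ldha to Ldhb ratio rises from about 5.5 to about 8.2 in WT, and in 5 of the 6 panels CTX and normal libraries do not overlap in either genotype. Pfkp to Pfkl overlaps in WT.

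Libraries within a group differed together in these genes. WT CTX library 3 was the highest of its group in 31 of 36 tested members, where it was the highest in 24.3% of all genes. KO normal library 3 was the highest in 23 members (23.9% of all genes) and WT normal library 3 in 17 (25.8%). KO CTX library 2 was highest in 20 members (30.3% of all genes) and KO CTX library 4 lowest in 25 (26%). In WT CTX library 3 Adgre1 was at 1254 CPM, beside 617 to 842 CPM in the other 3 WT CTX libraries, and the 11 neutrophil markers summed to 656 CPM beside 318 to 582. With WT CTX 3, WT normal 3 and KO normal 3 all left out, a choice made after seeing the values, 24 members rose and 5 fell in WT and 27 rose and 4 fell in KO. Hk2, Egln1 and Egln3 then lost their WT calls (edgeR adjusted p = 0.118, 0.0645 and 0.0706), and Aldoc and Ldhb their KO calls (edgeR adjusted p = 0.0961 and 0.104). 

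**Figure D4:**
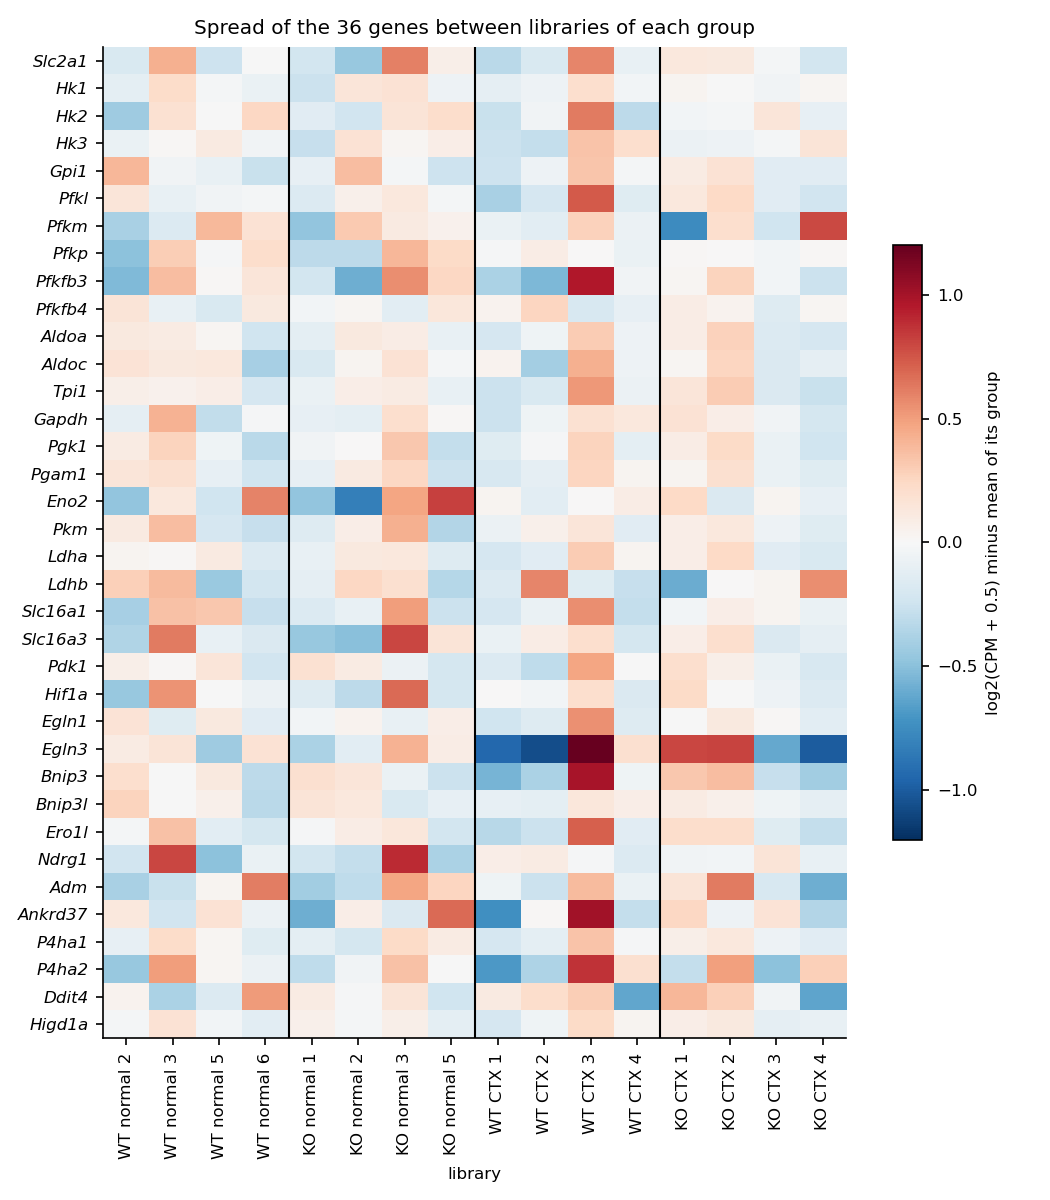
Deviation of each library from its group's mean for the 36 tested members, in log2(CPM + 0.5), with red above and blue below the mean and the color scale ending at ±1.2. WT CTX library 3 is red for 31 members that peak there, and KO normal library 3 for the 23 that peak there.

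Markers of other cells and of handling also moved with injury. The 13 immediate early and heat shock genes summed to 22389 to 27569 CPM without injury and 4611 to 6197 CPM after it. Neutrophil markers summed to 353 to 6882 CPM without injury, with both maxima of the normal groups in libraries 2. Library 2 was the lowest of its group in 12 members in WT normal (27.7% of all genes) and 9 in KO normal (21.3%). Pfkfb3, Hk2, Pfkp and Hif1a were among them in both genotypes. It was the highest in 8 and 5 members (30.6% and 24% of all genes). After injury the neutrophil markers summed to 318 to 656 CPM in WT and 432 to 1353 CPM in KO libraries. Of 11 neutrophil markers tested, 7 were called lower with injury in WT and 1 in KO, and 0 differed between KO and WT past the threshold in CTX muscle. Dendritic cell markers summed to 423 to 803 CPM without injury and 54.6 to 98.96 CPM after it. In each genotype 6 of 7 were called lower, and Xcr1 alone was called higher (log2 2.33 in WT and 0.86 in KO). Endothelial markers summed to 152 to 252 CPM without injury and 67.8 to 89.9 CPM after it, with 6 (WT) and 7 (KO) of 8 lower. Of 8 fibroblast markers 6 were called lower in WT and 7 in KO (median log2 -1.199 and -2.54), Col1a1 going from 51.5 to 347 CPM to 10.9 to 18.5 CPM, while Gsn lay at 313 to 599 and 571 to 653 CPM of a sum of 545 to 1326 and 629.9 to 750.5 CPM. Of 8 T and NK cell markers 7 were called at least 2-fold lower in each genotype (median log2 -3.77 in WT and -3.102 in KO), and Il7r alone was higher, at 14 to 48.4 CPM without injury and 182 to 261 CPM after it. B cell markers summed to 11.8 to 42.3 and 1.196 to 9.403 CPM. Of 6 erythroid genes, 4 were at 0 in every library. Their part in the members' changes was not tested, and in sorted bulk cells fewer cells of a type and less RNA per cell cannot be told apart. With the 13 male libraries only, 24 members rose and 5 fell in WT, and 26 and 4 in KO. The calls lost there were those of Hk2, Egln1, Egln3 and Pfkfb3 in WT (edgeR adjusted p = 0.0532, 0.0537, 0.0568 and 0.118) and of Aldoc and Pfkfb3 in KO (edgeR adjusted p = 0.0554 and 0.113). Limma voom did not call Hk2 and Egln3 in WT (adjusted p = 0.0585 and 0.153) or Pfkfb3 in KO (adjusted p = 0.107), and a filter of 5 CPM in 4 libraries ended the edgeR calls of Hk2 and Egln1 in WT (adjusted p = 0.143 and 0.0641) and of Ddit4 in KO (adjusted p = 0.0592). Without a filter Aldoc was not called in WT or KO (edgeR adjusted p = 0.0784 and 0.1), nor were Ldhb and Pfkfb3 in KO (edgeR adjusted p = 0.0711 and 0.0556). With only the groups compared in the fit, the WT calls of Aldoc and Hk2 were lost (edgeR adjusted p = 0.0732 and 0.0831), and with library totals that of Egln3 in KO (1.12, edgeR adjusted p = 0.0871).

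No member differed between KO and WT past the threshold. In normal muscle 0 of 36 members and 0 of 13649 genes (0%) were called by edgeR, and members at an unadjusted p under 0.05 numbered 0 (2.86% of all genes). Differences ran from -0.34 to 0.21 with SEs of 0.107 to 0.612. The smallest p belonged to Hk3 (-0.25), Hk2 (-0.34) and Hif1a (-0.32), each with an edgeR adjusted p of 0.991. Hk3 was the 1 member whose groups did not overlap (1.08% of all genes), averaging 138 ± 7.77 CPM for WT and 116 ± 15.2 for KO (SD, n = 4 each), with the nearest libraries at 130.4 and 130.5 CPM.

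In CTX-injected muscle 0 members were called, beside 1 gene of all tested (0.00733%), and 2 had an unadjusted p under 0.05 (6.67% of all genes). Ddit4 averaged 33.05 ± 8.48 CPM for WT and 20.97 ± 6.21 for KO (SD, n = 4 each; log2 -0.66, edgeR adjusted p = 0.603). Hk2 differed by -0.42 and Slc16a1 by -0.39 (edgeR adjusted p = 0.71 and 0.857). Ndrg1 was the only member without overlap (5.7% of all genes), averaging 580.4 ± 46.4 CPM for WT and 441 ± 34.3 for KO (edgeR adjusted p = 0.923). The difference between the injury responses of the genotypes (interaction) was called for 0 members and 0% of genes, with 1 member at an unadjusted p under 0.05 (4.73% of all genes). The smallest p were those of Hk3 (0.44), Ddit4 (-0.72) and Ndrg1 (-0.54), with edgeR adjusted p of 0.991 to 1. DESeq2 and limma voom also called 0 members in these 3 comparisons. With SEs up to 0.612 in normal and 0.571 in CTX muscle, differences of that size in scarce members such as Egln3 were not detectable here.

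Related genes outside the set differed in direction from list to list, and the isoenzymes mainly fell. Of 18 tested isoenzymes and partners of glycolysis, 2 rose and 13 fell in WT (2 and 10 in KO). Over all tested genes 33.3% rose and 39.4% fell in WT, and 33.3% and 40.2% in KO. Bsg, the chaperone of lactate transporters, went from 164 to 359 CPM (log2 1.13) and the transporter Slc2a6 from 60.1 to 174 CPM (1.53) in WT. Pdk2 (15.6 to 1.58 CPM, log2 -3.30), the muscle enolase Eno3 (-2.104) and the glucose transporter Slc2a3 (-1.71) fell. In the pentose phosphate pathway, which branches from glucose-6-phosphate to make NADPH, 5 of 7 genes rose in WT and 4 in KO and 0 fell, among them Pgd (172 to 505 CPM, log2 1.55), Taldo1 (1.30) and Pgls (0.65). Of 11 genes of glycogen and gluconeogenesis, 3 rose and 5 fell in each genotype, among them Ugp2 (1.25), Pgm1 (0.87) and Pgm2 (0.78), and Pcx (-1.62), Pygb (-0.50) and Pck2 (-0.93). The share called in either direction was 72.7% of these genes in each genotype, beside 72.7% (WT) and 73.6% (KO) of all genes.

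For the counts that follow, 33.3% of all tested genes rose and 39.4% fell in WT, and 33.3% and 40.2% in KO. Of the 7 other HIF pathway genes, 4 rose and 3 fell in each genotype. Hif1an, which blocks HIF transactivation (0.68), Egln2 (0.94) and Arnt, the HIF partner (0.47), rose in WT, while Hif3a (-5.24), Epas1, which encodes HIF-2α (-0.86), and Arnt2 (-3.91) fell, Hif3a and Arnt2 from under 1 CPM. Of 25 further HIF targets, 13 rose and 6 fell in WT and 14 and 7 in KO. P4hb (473 to 1634 CPM, log2 1.79), Mif (2.36) and Anxa2 (2.098) had the smallest p among those that rose, and Zfp395 (-2.65), Vldlr (-3.59) and Loxl2 (-1.75) among those that fell. Each of these named genes had an edgeR adjusted p of at most 0.00695 in WT.

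Scaling by library totals changed these counts too. The isoenzymes then had 2 genes up and 16 down in each genotype, the pentose phosphate pathway 2 and 1, glycogen and gluconeogenesis 2 and 6 in WT and 1 and 7 in KO, the HIF pathway genes 1 and 3 and the further HIF targets 10 and 11 in each. On that scale 14.2% of all tested genes were up and 61.2% down in WT, and 14.1% and 61.5% in KO. Of the genes named above, Pgls (0.02), Pgm2 (0.15), Hif1an (0.06) and Arnt (-0.14) no longer passed in WT, Arnt with its sign turned (edgeR adjusted p = 0.893, 0.577, 0.56 and 0.216).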

How the data were processed

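The authors deposited 1 table of raw read counts, whole numbers listed by gene symbol. Per the submitters' processing notes, reads were checked with FastQC 0.11.7, and the tools also included cutadapt (version 1.18), the aligner HISAT2 (2.1.0) and the counter featureCounts (Subread 1.6.2), on mm10, and per the labels' protocols the RNA was amplified with SMART-Seq V4, whose reads carry no strand. The sources used here give neither the annotation nor the treatment of reads matching several places. Counts were fitted with edgeR 4.0.16 in R 4.3.3 (filterByExpr, TMM, quasi-likelihood test over all 16 libraries, Benjamini-Hochberg, threshold 0.05, prior count 2). Overlap and ratios (count plus 0.5) were computed per library, with exact permutation tests of ratios. Alternatives were DESeq2 1.42.0, limma 3.58.1 voom, library totals, other filters, males only, the replicate block and leaving out each library. The script was tested on simulated data. Lengths and gene positions came from GENCODE M21 (GRCm38, the assembly of mm10), promoters from RefSeq.

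The members and lists were chosen with earlier results of these data known. Values in every library were given for Slc2a1, members called in both injury comparisons with a log2 change of at least 1 in both, and members called lower in either. The lists named other genes by smallest p in WT. In normal muscle, same-numbered KO and WT libraries deviated together for numbers 2 and 3 (correlations of 0.644 and 0.567). For number 5 the correlation was 0.244, and KO normal 5 was closest to WT normal 6. The labels do not say what the numbers stand for, so a pairing is not established. A block by number called 0 members there, as without it. Elsewhere the correlations were -0.124 to 0.068. Pairs of libraries within groups differed by more than sampling noise (chi-square per degree of freedom of at least 6.33). Intervals of counting error were not used, since the spread between libraries was larger.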

Additional observations from a re-analysis of the deposited data

Results flagged for a closer look

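Of 148 groups of 4 libraries (37 members in 4 groups), 10 held a value whose gap to its nearest neighbour over the group's range exceeded Dixon's 95% critical value (6.76%, where chance gives about 1 in 20). WT CTX library 3 was high in Pfkl (255.5 CPM), Pfkm (2.46 CPM), Egln1 (94.4 CPM) and Ero1l (356.5 CPM), beside at most 139, 1.81, 57.9 and 198 CPM in the other 3 libraries of its group. KO normal library 3 was high in Hif1a (263 CPM) and Ndrg1 (118 CPM). WT CTX library 2 was high in Ldhb (8.42 CPM). WT normal library 6 was low in Aldoc (3.04 CPM) and Tpi1 (90.05 CPM), and WT normal library 5 in Egln3 (1.37 CPM).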

How the results depend on the processing

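With library totals in place of TMM factors, 8 members fell in WT (5 with TMM) and the signs turned for Ankrd37 (-0.033 in WT, -0.23 in KO), Egln1 (-0.15, -0.10) and Hk2 (-0.13, -0.20). Without the low-count filter 3 members fell in KO (6 with it). With a replicate block 3 members fell in WT and 27 rose, and 4 fell and 27 rose in KO. The calls of Aldoc (edgeR adjusted p = 0.0705 in WT and 0.107 in KO) and Pfkfb3 (edgeR adjusted p = 0.0737 and 0.0904) were lost there. In the injury comparisons same-numbered libraries did not deviate together, and with the block the genotype comparisons again called 0 members. Leaving out 1 library at a time gave 25 to 27 rising and 3 to 5 falling members in WT, 24 to 26 and 3 to 5 in KO, and 0 to 0 in the genotype comparisons and the interaction. The 3 falling members in WT came without WT normal 3, WT CTX 1 or WT CTX 4, and in KO without KO normal 3, KO CTX 1 or KO CTX 3. Bnip3l turned to 0.04 in WT without WT normal 2 (-0.164 to 0.04 with 1 library left out), and Ankrd37 to -0.041 in WT without the 3 libraries that stood apart. Among the ratios, none of which passed, Eno1 to Eno2 turned to -0.43 (pseudocount of 5), -0.40 (males only) and -0.012 (without WT normal 5) in WT, where leaving out 1 library gave -0.012 to 0.766, and to 0.09 in KO (without KO CTX 4), where it gave -1.367 to 0.09. Hk3 to Hk1 turned in WT to 0.057 (males only), 0.017 (without WT normal 5), 0.021 (without WT CTX 1) and 0.046 (without WT CTX 2), and Pfkfb3 to Pfkfb4 in KO to 0.091 (without KO normal 3; -0.338 to 0.091 with 1 library left out). The cause was not tested. With 3 or fewer libraries in a group the ratio tests cannot reach the threshold, so only directions were compared. Depth limits the members with fewest counts over all libraries: Eno1 (35), Ankrd37, P4ha2, Aldoc, Adm, Egln3 and Pfkm.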
